A study of Mus musculus with 18 samples.

Results

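Muscle RNA of old male mice given 3TC was compared with that of old untreated males, 3 libraries against 3, taken from the 18 libraries of the series by their labelled age, sex and treatment. All were C57BL/6 mice of 19 months, and the tissue was the rectus femoris, a thigh muscle. The treated animals, males 1, 2 and 5, had received 2 mg/mL 3TC in the drinking water for 6 weeks. The untreated animals were males 1, 3 and 6, and neither arm carried an engineered allele per the labels. Old females of both arms (3 and 3) and untreated young males of 8 months (3) served for comparison. Untreated young females of 8 months (3) entered the limma fit for the estimate of the spread. The labels give each library as a separate sample and say nothing of batches or litters, so p-values measure the spread between samples. In limma that spread is pooled over all 6 groups of the 18 libraries, not taken from the old males alone.

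3TC (lamivudine) is a cytidine analogue that, once phosphorylated in cells, stops reverse transcriptase by ending the growing DNA chain. Retrotransposons such as LINE-1 and endogenous retroviruses copy themselves through reverse transcriptase, and their DNA copies in the cytosol can set off the cGAS-STING pathway and interferon-stimulated genes. The drug acts on the making of DNA, so the RNA level of these elements, which is what sequencing of poly(A) RNA reads, lies upstream of the inhibited step. Skeletal muscle also holds fibroblasts, macrophages, vessels and nerve, whose transcripts enter the same libraries.

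The deposited values were read counts that the authors had scaled to a common total of 74.0 M per library, and all levels below are on that scale (normalised counts). The reads behind them came to 77.6 M to 85.4 M in the untreated males and 69.9 M to 80.4 M in the 3TC males. Xist, which female cells make from the inactive X, was at 0 to 15.6 normalised counts in the 9 male libraries of the series and at 7188 or more in the 9 female ones. The mean log2 level of 20 skeletal muscle genes lay between 18.5 and 18.7 in all 6 old male libraries. Changes are differences of the mean log2(normalised count + 1), 3TC minus untreated, with their standard error (SE) from limma. The pseudocount of 1 understates the changes of genes with few counts.

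3TC males 1 and 2 stood apart, in different ways, and the results are given with and without them. 3TC male 2 held liver transcripts. Alb, the gene of serum albumin, was at 143, 74.5 and 83.0 normalised counts in untreated males 1, 3 and 6, at 192 and 112 in 3TC males 1 and 5, and at 190525 in 3TC male 2, the highest of all 18 libraries. All 26 genes of a liver list were highest in that library, 23 of them more than 10-fold above each of the other old males, with a median of 229-fold. They included the fibrinogen chain gene Fgb (12703 against 0 to 15.9 elsewhere), the vitamin D binding protein gene Gc (11426 against 0 to 9.10) and the thyroxine carrier gene Ttr (14103 against 0 to 51.9). The list took 0.603% of the counts of 3TC male 2, 0.0109% and 0.0310% in 3TC males 1 and 5, and 0.0245%, 0.0369% and 0.0261% in the untreated males. Of all genes tested, 306 lay at least 10-fold above the other old males in 3TC male 2 (0.893% of its counts), against 0 to 3 in each of the other libraries. Between this library and the others, Pearson's r of log2 values ran from 0.902 to 0.920, while other pairs reached 0.981.

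**Figure D1:**
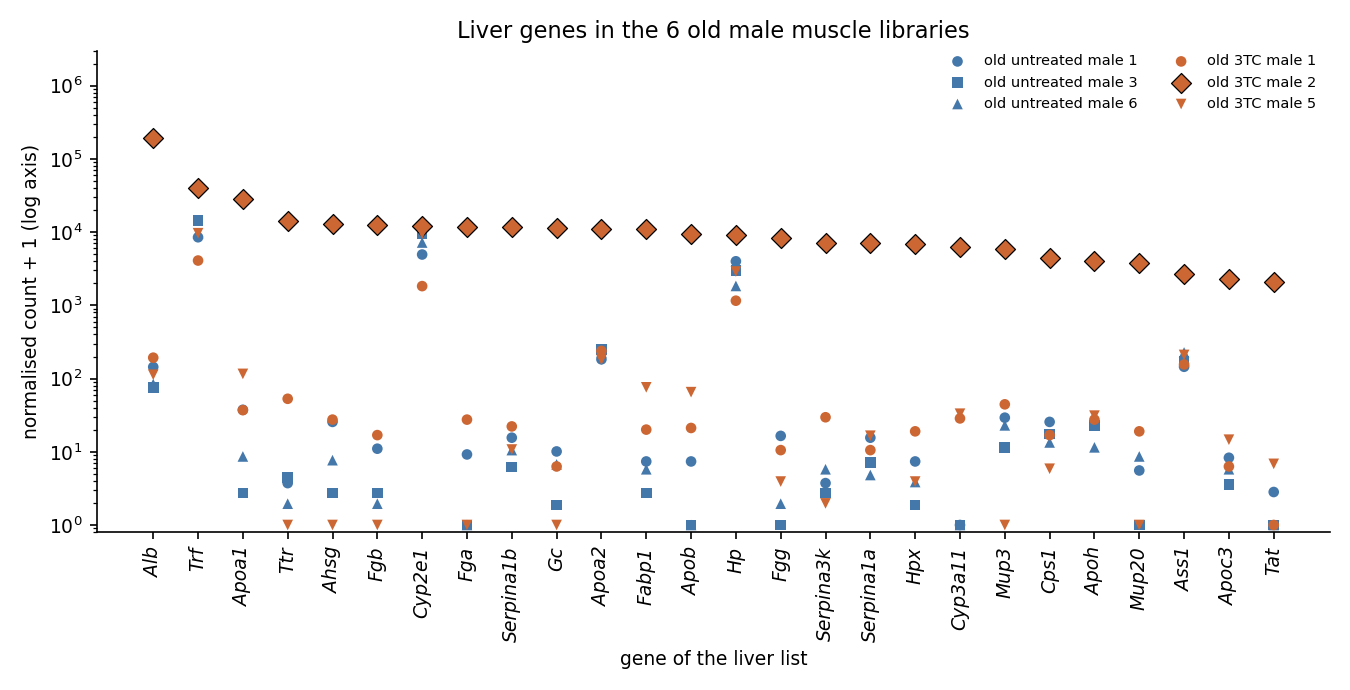
Normalised counts plus 1 (log axis) of the 26 genes of the liver list in each of the 6 old male libraries, ordered by their level in 3TC male 2 (large outlined diamonds). That library lies highest for all 26 genes, and the margin is small only where the muscle libraries already held many counts, as for Trf, Hp and Cyp2e1.

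3TC male 1 stood apart by low values. It had the fewest reads (69.9 M) and the lowest median-of-ratios size factor (0.909, against 1.01 to 1.09 in the other old males), and 53.4% of its genes lay below all 3 untreated males, against 20.4% in 3TC male 2 and 33.4% in 3TC male 5. Its median gene stood at 0.816 of the untreated mean. The median change of all 16060 genes was accordingly −0.11, and it became −0.04 without 3TC male 1, −0.18 without 3TC male 2 and 0.00 under median-of-ratios scaling. List medians between −0.1 and 0 therefore turn sign with the scaling, and no direction is read from them.

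No gene passed a Benjamini-Hochberg adjusted p under 0.05 in limma, 0 of 16060 tested (0%), with a lowest adjusted p of 0.958. At an unadjusted p under 0.05 there were 583 genes (3.63%), of which 518 (3.23%) were lower and 65 (0.405%) higher with 3TC. The groups did not overlap, with 3TC lower, for 1479 genes (9.21%), and with 3TC higher for 349 (2.17%). These shares became 25.1% lower and 4.04% higher without 3TC male 2, and 11.4% lower and 6.25% higher without 3TC male 1. Without 3TC male 2 limma again called 0 genes (lowest adjusted p 0.695), and 1136 had an unadjusted p under 0.05. The count at that level was 278 without 3TC male 1 and 720 without 3TC male 5. edgeR on the recovered reads called 0 genes as well, with 1105 at an unadjusted p under 0.05.

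DESeq2 on the recovered reads called 109 genes (0.679%), 104 higher and 5 lower with 3TC, and 95 of the 109 were among the 306 genes that stood apart in 3TC male 2. Of the other 14, Cyp2a22, Cyp3a41a and Slc22a26 were at 48.8, 19.3 and 15.7 in 3TC male 2 and at 0 in the other old males, and Mpped1 was at 0.910 in untreated male 1 and at 0 in the others. Gstm6, a glutathione transferase, was at 28.6 to 33.7 in the untreated males and at 64.6, 352 and 51.6 in 3TC males 1, 2 and 5. The remaining 9 were Tuba8 (0.49 ± 0.12 SE), Lrrc14b (0.31), Ccl25 (0.74), Rpp25l (0.55), Cfap36 (0.53), Fbn1 (−1.01), Mfsd7b (−0.92), Neat1 (−0.68) and Atp10a (−0.79), at DESeq2 adjusted p = 0.00947 to 0.0499. Leaving out 3TC male 2, DESeq2 called 47 genes (0.293%), 16 of them also among the 109. Of the 47, 29 had fitted changes beyond 10 on the log2 scale. Of the other 18, 12 were higher and 6 lower. The higher ones were Ubl7 (0.38), Bloc1s3 (1.26), Rpp25l (0.65), Rsph6a (6.14), Lyar (0.49), Tuba8 (0.54), Lrrc14b (0.34), 0610011F06Rik (0.44), AU019823 (0.38), Brap (0.30), Txlnb (0.26) and Vps4a (0.35). Ubl7 had the smallest DESeq2 adjusted p of the 18 (0.00154). On the lower side were the matrix genes Fbn1 (−1.20), Col3a1 (−1.40) and Col5a2 (−0.97). So were the activin antagonist gene Fst (−1.01), the p53 target Zmat3 (−0.55) and the proliferation marker Mki67 (−2.24).

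Among single genes with lower values, the smallest limma p belonged to Mfsd7b, now named Flvcr1, a heme exporter and choline transporter encoded on chromosome 1. It was at 916, 1274 and 954 normalised counts in untreated males 1, 3 and 6 and at 507, 414 and 611 in 3TC males 1, 2 and 5. The highest 3TC library lay below the lowest untreated one, and the change was −1.04 ± 0.22 (limma adjusted p = 0.958), or −0.90 without 3TC male 2 and −1.04 without 3TC male 1. In old females the same gene stood at 0.09 ± 0.22.

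Neat1, the long noncoding RNA that builds nuclear paraspeckles (chromosome 19, 5824708 to 5845478), was at 43645, 39344 and 30285 in the untreated males and at 16687, 22251 and 26893 in the 3TC males. The groups did not overlap, as the rule required, and the change was −0.79 ± 0.18 (limma adjusted p = 0.958). Young untreated males had 18393 to 22673, and the old untreated males stood 0.87 above them on the log2 scale. The treated and the young animals were both compared with the same 3 old untreated libraries, so the 2 differences share them. In females the change with 3TC was 0.12.

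Peli1, a ubiquitin ligase of Toll-like receptor signalling, was at 860, 938 and 893 in the untreated and 624, 766 and 598 in the 3TC males (−0.44 ± 0.12). Cbl, a ubiquitin ligase of receptor tyrosine kinases, was at 330, 407 and 326 against 157, 207 and 237 (−0.83 ± 0.23). Atp10a, a phospholipid flippase, was at 343, 317 and 308 against 116, 161 and 245 (−0.95 ± 0.28). In none of these 3 did the groups overlap, as the naming rule required, and in Cbl and Atp10a 3TC male 1 was the lowest library. Itga9, an integrin subunit (−0.69 ± 0.19), Frmd6 (−0.66 ± 0.19) and Plekho2 (−0.75 ± 0.21) showed the same order of groups. Their changes without 3TC male 1 were −0.51, −0.41 and −0.63.

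Higher values were fewer. Ccl25, a chemokine known from thymus and gut (chromosome 8), was at 117, 122 and 114 in the untreated males and at 186, 203 and 160 in the 3TC males. The 3 untreated libraries were close together, all 3TC libraries lay above them, and the change was 0.62 ± 0.19 (limma adjusted p = 0.958; 0.55 without 3TC male 2). In young males Ccl25 was at 138 to 174, and in females the change with 3TC was −0.30. Rpp25l, an RNase P subunit paralogue, was at 1211, 1114 and 1018 against 1721, 1411 and 1356 (0.42 ± 0.13; 0.32 without 3TC male 1). Prodh, the proline dehydrogenase of mitochondria, was at 471, 501 and 522 against 720, 793 and 620 (0.51 ± 0.17). Tmie, a component of the hair cell transduction channel, had fewer counts, at 85.6, 36.4 and 47.7 against 142, 211 and 92.4 (1.39 ± 0.43). In all 4 genes the groups did not overlap, as the naming rule required.

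The other 4 genes that the naming rule picked on the higher side were Cyp3a11, Tdo2, Apob and Dsg2. Cyp3a11, a liver cytochrome P450, was at 0 in each untreated male, at 27.6 and 32.1 in 3TC males 1 and 5 and at 6349 in 3TC male 2. Tdo2, which starts tryptophan breakdown in liver, was at 0 to 2.60 in the untreated males, at 19.1 and 20.4 in 3TC males 1 and 5 and at 1705 in 3TC male 2. For Apob, the lipoprotein scaffold, the values were 0 to 6.37, 20.1, 64.2 and 9568 in the same order, and for Dsg2, a desmosomal cadherin, 0 to 0.910, 11.7, 3.89 and 385. The values of all 4 genes moved with the liver list in 3TC male 2. Their changes without that library were 4.94, 3.25, 4.25 and 2.66, and rested on 3TC values under 65 counts.

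**Figure D2:**
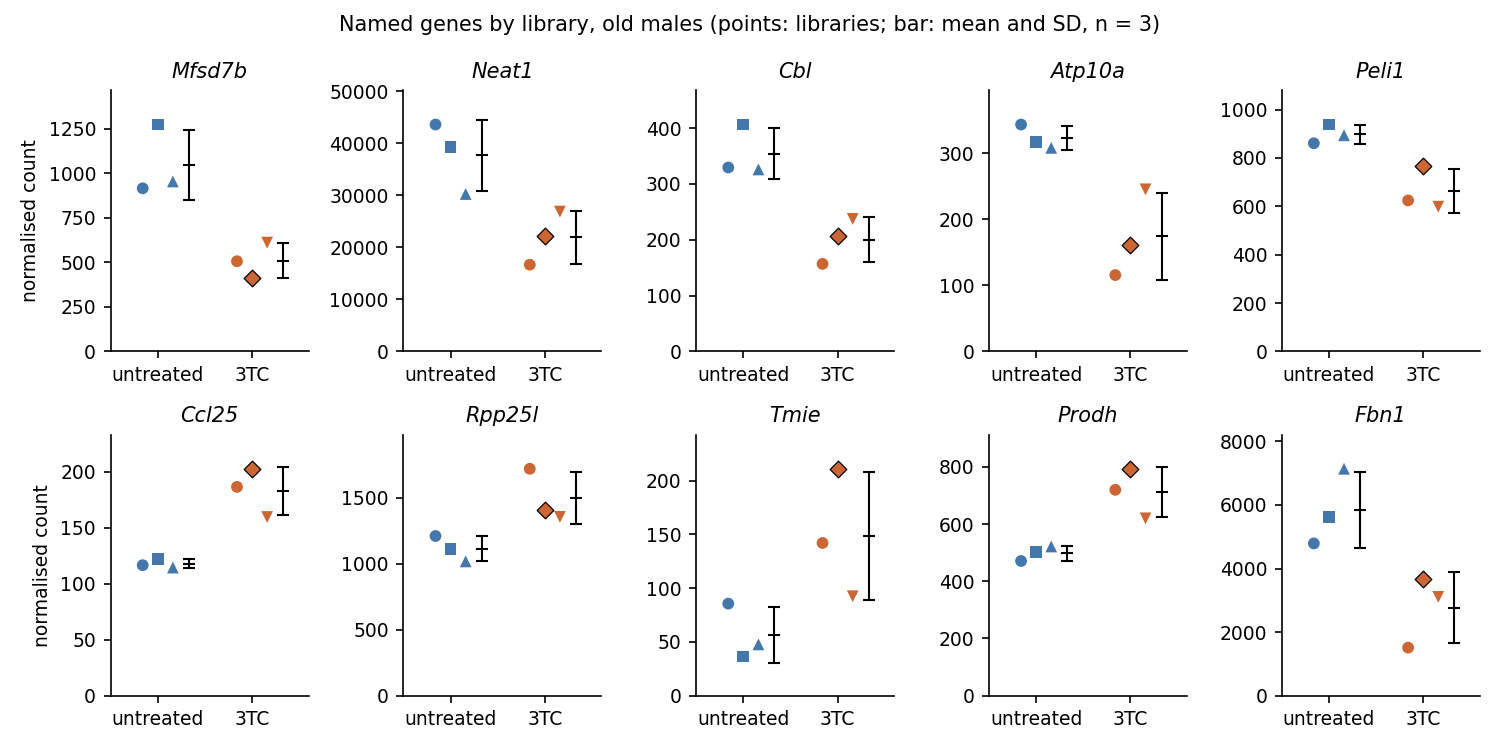
Normalised counts of 10 named genes in each old male library (blue circle, square and triangle, untreated males 1, 3 and 6; orange circle, outlined diamond and inverted triangle, 3TC males 1, 2 and 5), with the mean and SD beside each group of 3. The groups do not overlap in any of the 10 panels, which the naming rule required of all but Fbn1. 3TC is the lower group for Mfsd7b, Neat1, Cbl, Atp10a, Peli1 and Fbn1.

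Collagen and matrix genes, the products of fibroblasts and other stromal cells, lay lower in the 3TC males as a group. All 24 members tested were below 0, as were 67.8% of all genes, with a median of −0.71 beside −0.11 for all genes (−0.60 beside 0.00 under median-of-ratios scaling). In 14 of the 24 the groups did not overlap, with 3TC lower, where 9.21% of all genes did so (22 of 24 without 3TC male 2, beside 25.1%, and 14 without 3TC male 1, beside 11.4%). At an unadjusted p under 0.05 there were 10, all lower, beside 3.23% of all genes lower at that level, and 0 passed the adjusted threshold. The median was −0.99 without 3TC male 2 and −0.40 without 3TC male 1, so its size moved by more than 1.5 times with the latter library. The median of all genes was −0.18 and −0.04 in the same settings. In females the same list had a median of −0.03, beside −0.19 for all genes. Whether fewer stromal cells or less RNA per cell lay behind such values cannot be told apart in bulk tissue.

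The order of the 3 treated libraries was much the same across the list. 3TC male 1 was the lowest of the 6 libraries in 22 of 24 genes, at a median of 0.341 of the untreated mean. 3TC male 5 lay at 0.694 and 3TC male 2 at 0.842, and they were below all untreated males in 22 and 15 genes. 3TC male 1 was below all untreated males in 24. Over all genes tested, 53.4%, 33.4% and 20.4% were below all untreated males in 3TC males 1, 5 and 2. The median gene stood at 0.816, 0.926 and 1.004 of the untreated mean in the same order. Col3a1, the chain of type III collagen, was at 14842, 16543 and 15193 in the untreated males and at 2525, 14812 and 8223 in 3TC males 1, 2 and 5 (−1.20 ± 0.59). The value of 3TC male 2 was just under the lowest untreated one, and 3TC male 1 was far below both other treated libraries. Col1a1, a chain of type I collagen, was at 5781, 5948 and 6355 against 1292, 5192 and 3716 (−1.04 ± 0.48), and Col1a2, its partner chain, at 9551, 9292 and 10520 against 2104, 8123 and 6874 (−0.997 ± 0.461). Both showed the same order of the treated libraries, and without 3TC male 1 the 3 changes were −0.49, −0.46 and −0.39.

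Fbn1, the gene of fibrillin microfibrils (chromosome 2), had the smallest p of the list. It was at 4791, 5620 and 7139 in the untreated and 1512, 3677 and 3108 in the 3TC males, a change of −1.16 ± 0.37 (limma adjusted p = 0.958; −1.41 without 3TC male 2, −0.77 without 3TC male 1). Col14a1, a fibril-associated collagen, was at 943, 1098 and 1768 against 540, 578 and 717 (−1.01 ± 0.34). Here the 3 treated libraries were close to each other, and the change was −0.92 without 3TC male 1. In females Fbn1 and Col14a1 were at 0.23 and 0.10. The difference between the sexes was −1.39 ± 0.52 for Fbn1 and −1.11 ± 0.48 for Col14a1, each at a limma adjusted p of 1.00.

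**Figure D3:**
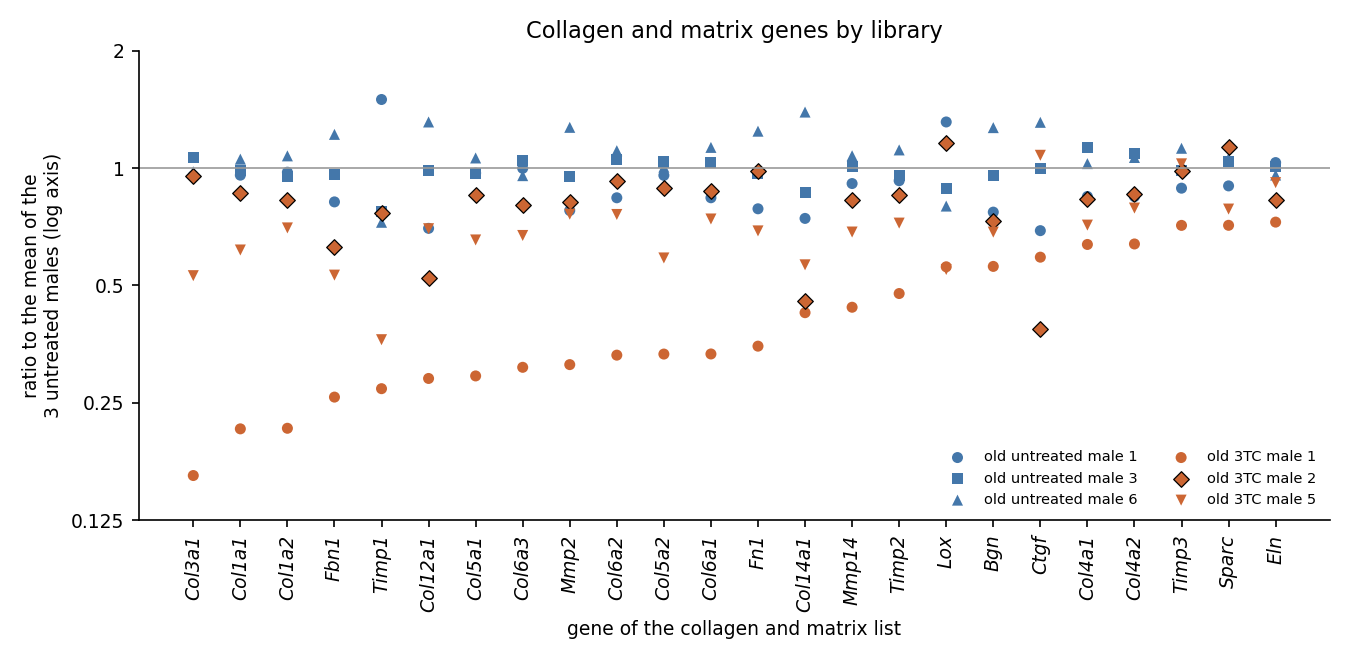
Ratio of each old male library to the mean of the 3 untreated males (log axis) for the 24 collagen and matrix genes tested, ordered by 3TC male 1 (orange circles). 3TC male 1 is lowest for 22 genes, while 3TC male 2 (outlined diamonds) lies close to the untreated males (blue) for most, Fbn1, Col12a1, Col14a1 and Ctgf apart.

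The 200 bases before the start of transcription of Col1a2, Col3a1 and Fbn1 are shown because these genes lay low together in 3TC male 1. They are from RefSeq on GRCm38.p6, at chr6:4505418-4505617 (+), chr1:45311338-45311537 (+) and chr2:125506439-125506638 (−), each written 5′ to 3′. Capitals mark matches on either strand to CCAAT, a motif of promoters bound by NF-Y, or to TATAAA, the letters of the TATA box.
Col1a2: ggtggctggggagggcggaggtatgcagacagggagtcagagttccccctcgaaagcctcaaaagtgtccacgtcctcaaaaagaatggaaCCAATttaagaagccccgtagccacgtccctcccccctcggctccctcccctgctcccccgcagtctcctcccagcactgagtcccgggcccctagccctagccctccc
Col3a1: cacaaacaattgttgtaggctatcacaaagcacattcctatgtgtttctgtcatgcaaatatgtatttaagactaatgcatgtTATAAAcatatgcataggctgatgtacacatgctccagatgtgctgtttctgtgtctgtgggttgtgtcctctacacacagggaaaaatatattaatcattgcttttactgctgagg
Fbn1: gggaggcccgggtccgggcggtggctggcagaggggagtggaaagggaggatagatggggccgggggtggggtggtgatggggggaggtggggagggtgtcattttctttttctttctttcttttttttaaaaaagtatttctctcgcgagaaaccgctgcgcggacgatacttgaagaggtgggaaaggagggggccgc
CCAAT was found once in Col1a2 (first base at −109 from the start), TATAAA once in Col3a1 (first base at −117), and neither in Fbn1. These are matches of letters, and whether either works as a promoter element was not tested. Of 32851 promoter windows of the same length, 29.3% held CCAAT and 9.96% held TATAAA on either strand.

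Most other lists of stromal and immune cells had medians below that of all genes, and 0 members of any passed the adjusted threshold. The neutrophil list lay above it, at 0.14 over 7 genes, of which 4 were above 0, and stood at −0.36 without 3TC male 1 and 0.39 without 3TC male 2. The fibroblast and fibro-adipogenic progenitor list stood at −0.57, with all 16 members below 0, beside 67.8% of all genes, and 5 lower without overlap, beside 9.21%. Without 3TC male 2 the latter number was 12, beside 25.1% of all genes. Among them Pi16, a marker of adventitial fibroblasts, was at 3032, 3953 and 4225 in the untreated and 1484, 2666 and 2356 in the 3TC males (−0.81 ± 0.39). Tendon genes had a median of −0.79 and endothelial genes −0.20. In these lists 1 of 10 and 1 of 16 were lower without overlap, near or under the 9.21% of all genes, so these counts do not set the lists apart. Without 3TC male 1 the medians of these 3 lists were −0.34, −0.52 and −0.24, beside −0.04 for all genes. Adipocyte genes stood at −0.25 (0.20 without 3TC male 1), and smooth muscle and pericyte genes at −0.11, with 0 lower without overlap in either. Fstl1 and Fst, which both encode secreted proteins, were at −0.80 ± 0.31 and −0.81 ± 0.29, and the groups overlapped for Fst.

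Macrophage genes had a median of −0.62, or −0.50 without 3TC male 1, beside −0.11 and −0.04 for all genes. All 20 were below 0, beside 67.8% of all genes, and 5 were lower without overlap, beside 9.21%. Without 3TC male 2 the latter number was 15, beside 25.1% of all genes. Ms4a7, a macrophage membrane protein, was at 184, 169 and 237 in the untreated and 69.9, 106 and 48.6 in the 3TC males (−1.44 ± 0.45; −1.43 without 3TC male 1). Young untreated males had 35.2 to 147, so the treated values lay within the range of the young ones. Lyve1, the hyaluronan receptor of resident macrophages and lymphatic vessels, was at 1081, 830 and 1324 against 767, 390 and 576 (−0.93 ± 0.43). Tlr9, the endosomal sensor of unmethylated DNA, was at 99.2, 82.3 and 153 against 18.01, 69.1 and 30.2 (−1.65 ± 0.54), where young males had 16.1 to 45.9. For both genes the groups did not overlap, and 0 of these genes passed the adjusted threshold.

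Mmp3, a matrix protease of the senescence list, was at 92.0, 104 and 118 against 36.0, 32.2 and 39.9 (−1.51 ± 0.64). Its treated libraries lay close together, the change was −1.51 without 3TC male 1 and −1.43 without 3TC male 2, and young males had 19.5 to 27.7. In females the change was −0.61. Markers of T, NK and B cells had few counts and a median of −0.84, with 13 of 13 below 0, beside 67.8% of all genes. The member with the smallest p, the T helper coreceptor gene Cd4, was at 98.3, 102 and 207 against 18.01, 82.0 and 73.0 (−1.40 ± 0.66; −0.72 without 3TC male 1).

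The pathway that senses cytosolic DNA gave 0 calls. Of 18 nucleic acid sensing genes, 13 were below 0, a share near the 67.8% of all genes, and 5 were lower without overlap, beside 9.21% of all genes. The median was −0.25 (−0.13 without 3TC male 1). The cGAS gene, listed under its older name Mb21d1, was at 38.2, 44.2 and 90.6 in the untreated and 12.7, 42.4 and 33.1 in the 3TC males, so the groups overlapped. The STING gene, listed as Tmem173, was at 361, 290 and 492 against 213, 254 and 265 (−0.61 ± 0.33) with no overlap. Dhx9, an RNA helicase, was at 1854, 1818 and 1862 against 1043, 1584 and 1575 (−0.42 ± 0.16), with 3TC male 1 lowest and a change of −0.22 without it. Interferon-stimulated genes had a median of −0.34 (−0.13 without 3TC male 1), with 37 of 39 below 0, beside 67.8% of all genes, and 6 lower without overlap, beside 9.21%. Ifi35 was at 784, 830 and 831 against 688, 615 and 626 (−0.34 ± 0.15), and Irf7, which drives interferon genes, at 392, 462 and 653 against 276, 450 and 415, with overlap (−0.40 ± 0.44; −0.18 without 3TC male 1). Medians were −0.33 for MHC class I presentation and −0.38 for complement, or −0.16 and −0.20 without 3TC male 1. Over all 6 libraries 1 of 18 and 4 of 20 were lower without overlap. Without 3TC male 2 the medians were −0.24 for sensing, −0.42 for interferon-stimulated, −0.42 for MHC class I and −0.56 for complement genes. Lower without overlap were then 8 of 18, 15 of 39, 1 of 18 and 11 of 20, beside 25.1% of all genes. The median of all genes was −0.18 without 3TC male 2 and −0.04 without 3TC male 1. Old untreated males stood above young ones at the medians of these 4 lists, by 0.42, 0.53, 0.60 and 0.98, beside 0.15 for all genes. That comparison shares the old untreated libraries.

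**Figure D4:**
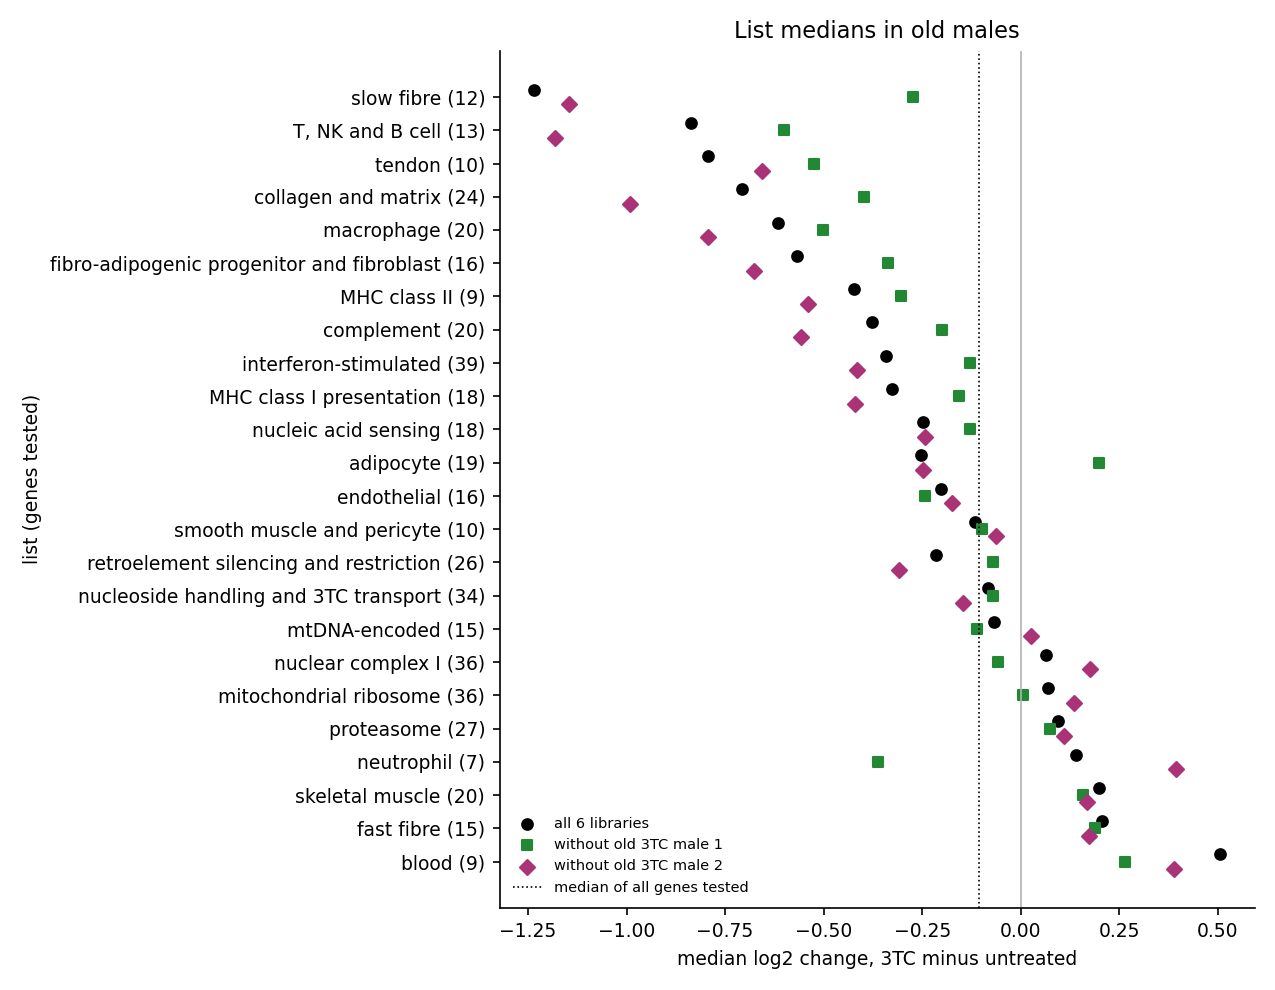
Median log2 change (3TC minus untreated) of 24 gene lists in old males, over all 6 libraries (black circles), without 3TC male 1 (green squares) and without 3TC male 2 (purple diamonds), beside the median of all genes tested (dotted line, −0.11). Most lists of stromal and immune cells lie to the left of the dotted line, the neutrophil list to its right. Without 3TC male 1 the matrix, fibroblast, tendon and macrophage points move to the right. The line holds for all 6 libraries only: the median of all genes was −0.04 without 3TC male 1 and −0.18 without 3TC male 2.

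Genes of the muscle fibres gave no call in limma. Genes of fast fibres had a median of 0.21 and general skeletal muscle genes 0.20, or 0.19 and 0.16 without 3TC male 1 and 0.17 each without 3TC male 2, with 4 of 15 and 3 of 20 higher without overlap, beside 2.17% of all genes. Tnni2, the fast troponin I gene, was at 570573, 530559 and 471175 in the untreated and 644277, 610297 and 589740 in the 3TC males (0.23 ± 0.19). Slow fibre genes had a median of −1.23, which was −0.27 without 3TC male 1, and 1 of 12 was lower without overlap, a share no larger than the 9.21% of all genes. Myh7, the slow myosin gene, was at 21.8, 102 and 111 against 20.1, 20.3 and 123, and Myh2, the type IIA myosin gene, at 20322, 142637 and 107903 against 23717, 27479 and 53926. Untreated male 1 was near the lowest treated libraries in both genes, and the groups overlapped. In females the slow fibre median was 2.33, on the other side of 0. The p53 response list had a median of 0.01, with 11 of 22 below 0, under the 67.8% of all genes. Without overlap, 2 were lower, near the 9.21% of all genes, and 1 was higher, beside 2.17%. At an unadjusted p under 0.05 there were 3 members, beside 3.63% of all genes. Of these 3, Zmat3 was at 867, 795 and 701 against 478, 715 and 476 (−0.52 ± 0.18), with overlap, and Pml at 669, 706 and 706 against 397, 577 and 447 (−0.57 ± 0.18). In females they were at −0.54 and −0.49.

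Mitochondrial transcripts are of interest because some nucleoside analogues also inhibit the mitochondrial DNA polymerase, and the groups overlapped. The mtDNA-encoded share of counts was 17.5%, 22.98% and 27.7% in the untreated and 23.1%, 18.8% and 23.2% in the 3TC males (exact two-sided permutation p = 1.00 over 20 regroupings, smallest possible p 0.1). The untreated range enclosed the treated one. Tfam, the mtDNA packaging factor, was at 2351, 2374 and 2058 against 2147, 2502 and 2419 (0.06 ± 0.10), and Ppargc1a, the coactivator of mitochondrial biogenesis, was at 1815, 2170 and 1939 against 2036, 1918 and 1950 (0.00 ± 0.12). Polg, the mtDNA polymerase gene, was at −0.11 ± 0.18. Mitochondrial ribosomal protein genes had a median of 0.07 (0.01 without 3TC male 1), with 4 of 36 higher without overlap, beside 2.17% of all genes. Of these Mrpl23 was at 4041, 3906 and 3855 against 5333, 4286 and 4467 (0.25 ± 0.11; 0.15 without 3TC male 1). Genes of the list for nucleoside handling and 3TC transport had a median of −0.08. The deoxycytidine kinase gene Dck, whose product phosphorylates 3TC, was at 198, 180 and 220 against 109, 198 and 144 (−0.44 ± 0.29; −0.23 without 3TC male 1), and the uptake transporter gene Slc29a1 at −0.22 ± 0.17.

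Transposable-element RNA took a smaller share of counts in each treated library. It was 2.15%, 2.01% and 2.13% in untreated males 1, 3 and 6 and 1.56%, 1.90% and 1.91% in 3TC males 1, 2 and 5, a difference of −0.306 percentage points (exact two-sided permutation p = 0.1, the smallest that 3 against 3 allows). The groups did not overlap, and 3TC male 1 was lowest. Without 3TC male 1 the difference was −0.192 percentage points. Young untreated males had a mean of 1.92%. The same order held for LINE elements (0.504%, 0.484% and 0.540% against 0.409%, 0.443% and 0.467%) and for SINE elements (0.914%, 0.848% and 0.902% against 0.651%, 0.793% and 0.813%). L1Md, the LINE-1 subfamilies that are young in the mouse, took 0.132%, 0.129% and 0.131% against 0.0943%, 0.116% and 0.118%. For LTR elements the shares were 0.604%, 0.569% and 0.582% against 0.416%, 0.556% and 0.526%.

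**Figure D5:**
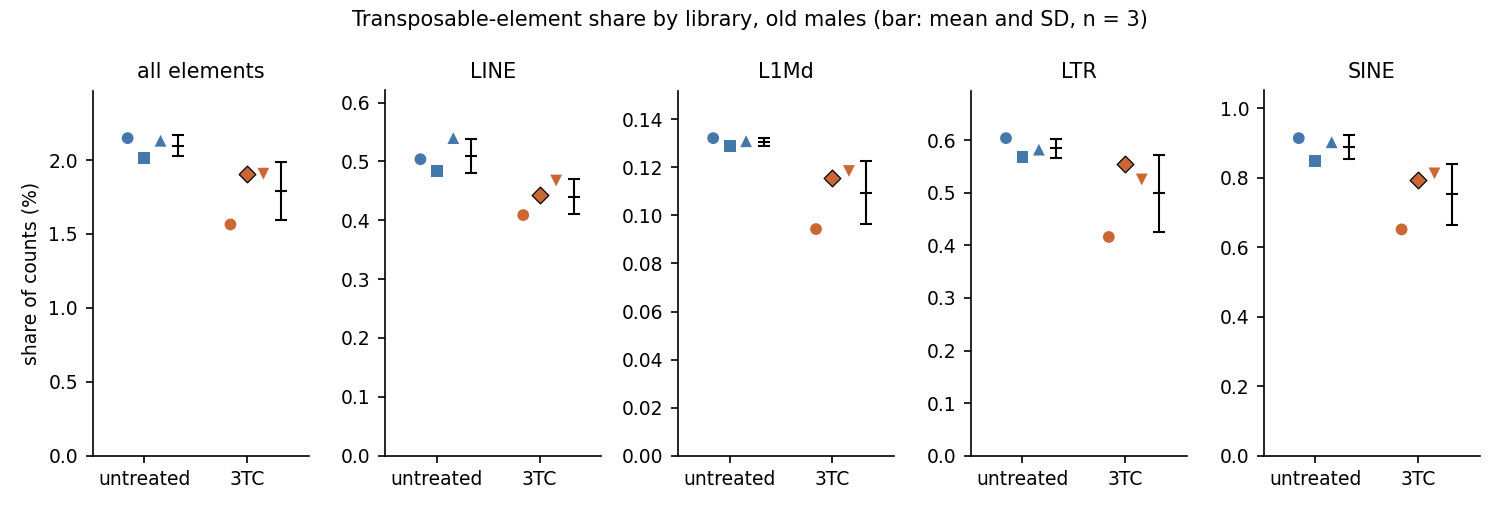
Share of all counts (%) in transposable-element rows, and in LINE, L1Md, LTR and SINE rows, for each old male library (symbols as for the named genes), with the mean and SD beside each group of 3. Every treated library lies below every untreated one in all 5 panels, and 3TC male 1 (orange circle) is lowest in each.

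By subfamily limma called 0 of 968 (0%; lowest adjusted p 0.979), and 7 had an unadjusted p under 0.05 (0.723%). That fit pooled the spread of all 18 libraries, and the largest transposable-element share among them lay outside the old males. Its median SE was 0.53 for subfamilies, beside 0.24 for genes. With the 6 old males alone limma again called 0 subfamilies (lowest adjusted p 0.318), and 91 had an unadjusted p under 0.05. The 0.723% therefore depends on libraries outside the comparison. Of the 968, 83.2% lay below 0, and the median change was −0.25 beside −0.11 for genes. It was −0.15 under median-of-ratios scaling, −0.02 when scaled to the total of the elements themselves, and −0.15 without 3TC male 1. The groups did not overlap, with 3TC lower, for 207 subfamilies (21.4%), and with 3TC higher for 6 (0.620%). Across classes the medians were alike: −0.37 for the 6 L1Md subfamilies (4 lower without overlap), −0.28 for 123 other L1 subfamilies (30), −0.24 for 271 ERVK (56), −0.24 for 103 ERV1 (13), −0.26 for 95 ERVL (21), −0.23 for 35 SINE (16) and −0.26 for 166 DNA transposon subfamilies (24).

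MTEb-int, an internal part of MaLR elements, was the best counted of the 5 lower subfamilies that the naming rule picked, at 3259, 3925 and 3958 in the untreated and 2483, 1945 and 1298 in the 3TC males (−1.004 ± 0.387). The groups did not overlap, and here 3TC male 5 was lowest. X7B_LINE, of the old CR1 family, was at 85.6, 97.1 and 118 against 28.6, 41.4 and 41.8 (−1.41 ± 0.55). The other lower ones, LTR86C, RLTR9A3B and MLT2E, had at most 30.5 counts in any old male. On the higher side MER52-int, MER124, LTR86A1 and Eulor6E had at most 38.7 counts, and the fifth was RLTR13B1, an ERVK LTR. RLTR13B1 was at 729, 542 and 589 in the untreated males, at 458 and 510 in 3TC males 1 and 5 and at 17419 in 3TC male 2. Its change of 1.38 ± 0.85 became −0.35 without that library.

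The sexes were set against each other in the same model. For the 3TC change in males minus that in females, limma called 0 of 16060 genes (0%), 477 had an unadjusted p under 0.05 (2.97%), and the lowest adjusted p was 1.00. Mfsd7b and Neat1 had the smallest p on the male-lower side, with differences of −1.13 ± 0.32 and −0.92 ± 0.26, followed by Cnga3, Hic2 and Sbk2. Hic2, a transcriptional repressor, was at 202, 224 and 229 in untreated and 158, 135 and 145 in 3TC males (−0.58 ± 0.19), with 0.28 in females. Ccl25 was among the 5 on the male-higher side (0.92 ± 0.27). The other 4, Lrrc4b, Kcnj10, Hpca and Slc1a2, are known from brain and had changes of −3.53 to −8.68 in females, beside 0.59 to 1.98 in males. The brain list had a median of 0.31 in males (−0.37 without 3TC male 2) and −3.71 in females. In females alone limma also called 0 genes, with 1286 at an unadjusted p under 0.05 (8.01%).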

How the data were processed

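The authors sequenced poly(A) RNA as paired-end reads of 150 bp. STAR and mm10 are named in the submitters' processing notes, and no counting program or annotation is named (not given in the sources used here). In the deposited file the signal was a table of normalised counts that sum to 74.0 M in each library (25604 features: 24431 genes, 1146 transposable-element subfamilies and 27 with dates in place of symbols, which held 0.0683 to 0.0831% of the counts of old males and were left out). The strand setting of the counting is not given, so overlapping and antisense genes and near-identical copies such as Serpina1a and Serpina1b may share reads.

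Values of 16 libraries were whole multiples of a step (100% within 0.001 reads), from which reads were recovered. For old untreated female 1 and young untreated male 1 the step lay near 1, and the count tests leave them out. All 18 libraries, in 6 groups of arm and sex, entered limma 3.58.1 in R 4.3.3 (lmFit, eBayes with a trend, 12 residual degrees of freedom) on log2(value + 1), for features whose mean over the 18 reached 10. Genes and subfamilies were adjusted separately (Benjamini-Hochberg, threshold 0.05). edgeR 4.0.16 and DESeq2 1.42.0 were alternatives. Single values were compared by exact permutation.

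The 50 gene lists (1051 members, 1032 found, 1023 tested) and the comparison were chosen with earlier results of these data known, so their directions are not independent evidence. Since fewer than 5 genes passed the threshold, the naming rule took, per direction, the 8 genes of smallest p with a mean of at least 50, no predicted name and groups that do not overlap. It added up to 2 members per list with an unadjusted p under 0.05, 27 preset genes, the 5 genes per direction with the smallest p for the difference between the sexes, 5 subfamilies per direction and the 5 liver genes highest in 3TC male 2. Other genes were named after their values were seen: the further matrix genes, Fgb, Gc, Pi16, Cd4, Tmem173, Tnni2 and those of the DESeq2 calls. Coordinates are from GENCODE on GRCm38, the build also called mm10. Errors of means are SD, and those of changes SE.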

Additional observations from a re-analysis of the deposited data

Results flagged for a closer look

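The score of the T, NK and B cell list, the mean log2 level of its genes, moved in opposite directions in the sexes. Each 3TC male lay below the mean of the untreated males, by −1.90 to −0.43 (mean −1.02), and each 3TC female above that of the untreated females, by 0.07 to 0.40 (mean 0.21). The difference was −1.22 and was not tested. It was the only 1 of 50 lists with such a split. The genes are low in count, and the score of males was lowest in 3TC male 1, at 4.07 beside 5.22 to 6.57 in the untreated males. 3TC males 2 and 5, at 5.53 and 5.25, lay within that untreated range, so the male groups overlapped (exact two-sided permutation p = 0.3). The part of 3TC male 1 in the result was not tested.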

How the results depend on the processing

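No paired analysis was possible because the labels link no treated old male to an untreated one. The count of genes called by limma stayed at 0 under the alternative scalings, pseudocounts, a higher filter, fits on 6 or 12 libraries, no trend, a liver covariate, removal of the liver list, an adjusted p of 0.1 and the omission of any one old male library (0 to 0). It was 1 with no filter, namely Mir6406, which had 5, 5 and 3 reads in the untreated males and 0 in all other libraries. It was 2587 with array weights, an estimate that did not converge. Weights estimated gene by gene, added after seeing the data, gave 0 (lowest adjusted p 0.0543). DESeq2 gave 109, or 47 leaving out 3TC male 2, and edgeR gave 0 in both cases (lowest adjusted p 0.718 and 0.578). The cause was not tested. Subfamilies and differences between the sexes stayed at 0 in all their alternatives, and at an unadjusted p under 0.05 the subfamilies numbered 91 with the 6 old males alone and 54 without young untreated females 1 and 3. RLTR13B1 reversed to −0.35 without 3TC male 2, and over the omission of single libraries it ran from −0.35 to 2.28. The median SE per gene, 0.24 on the log2 scale, limits what 3 libraries per group resolve.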

Other observations

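The liver transcripts of 3TC male 2 included genes known to be higher in the liver of male than of female mice, chosen after their values were seen. Mup20, a male pheromone-binding urinary protein, was at 3798 normalised counts there, and at 6.37 to 38.2 in the next 3 libraries by Alb, all from females (young untreated females 8 and 3 and old 3TC female 8, with Alb at 84440, 44970 and 39644). Cyp2d9 was at 764 beside 6.37 to 45.4, Slco1a1 at 222 beside 0 to 6.37, and Cyp4a12a at 77.4 beside 0 in each. Young untreated male 1, with Alb at 5810, had Mup20 at 766.

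RLTR13B1 was at 359 to 1003 in the other 17 libraries, those rich in Alb included, and at 17419 in 3TC male 2. Only 1 other subfamily stood 10-fold above the other old males there, LTRIS5, at 148 against 0.910 to 11.3. Among genes, C8a, a chain of the complement membrane attack complex, was at 1159 in that library and at most 94.5 in the other 17, and Serpina12 at 170 and at most 15.0. No relation between these values was tested.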
